A study of Mus musculus with 16 samples.

Results

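The immediate early response genes examined here were Fos, Fosb, Jun, Junb, Egr1, Egr3, Atf3, Ier2, Nr4a1 and Dusp1. They were found on the array through the accession of each probe, which mapped to all 10 symbols among 20145 named genes, with 1 probe for each. Of the probes, 9 were well above background on all 16 arrays and entered the tests, which covered 26781 genes. The probe of Egr3 was well above background on 1 of 16 arrays, MAT female 2, and was not tested.

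RNA came from the bladder body of C57BL/6 mice, with 1 bladder on each 1-colour Agilent array. Mature (MAT) mice were 12 months old and aged (AGED) mice were 27 to 30 months old. Each sex had 4 MAT and 4 AGED arrays, and no allele or agent differed between the groups. The study asked how ageing changes the bladder of each sex, and the same question was put here to these genes: did they differ between AGED and MAT bladders, and how far did single bladders of a group lie apart?

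Immediate early genes are transcribed within minutes of a stimulus from factors that are already present in the cell, and their transcripts are short-lived. Growth factors, stretch, injury, calcium entry and the handling of tissue are known to induce them, and in the bladder they respond to distension and to irritation of the urothelium. Most encode transcription factors that act on a later wave of genes, and some encode proteins that switch the signal off.

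All 9 tested genes had lower mean levels in AGED than in MAT males, with log2 differences of -2.30 to -0.56, but none passed the test over all genes. In females the differences lay between -0.88 and 0.63, with wide intervals, and none passed. Every direction of an age change here follows the deposited labels. The study lists Mmp3 and S100a9 among genes lower in AGED mice, and by the labels of the deposited arrays both were higher in AGED males, so the direction here is opposite to the study's. Which direction is right was not settled, and if the age labels were exchanged every age difference below would change its sign, whereas its size and the spread within groups would not. The spread of the 9 genes between bladders of one group was wide, with a median SD of 0.95 against 0.30 for all genes, and within groups their levels were high or low largely together. One array, MAT male 2, had the highest level of all 16 for 9 of 9 genes.

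The arrays themselves bear on these values. Between 52.3% and 68.2% of probes were well above background, and the 75th percentile of the log2 signals lay between 9.18 and 10.82. AGED male 1 was the dimmest array by both measures, and it was also the lowest of 16 for 5 of the 9 genes. The part of that dimness in the results was not tested. Females were on slide 1 and males on slide 2, so sex and slide cannot be told apart, and MAT arrays were in row 1 and AGED arrays in row 2 of both slides, so age and row cannot be told apart. Among markers, 8 of 8 smooth muscle genes (such as Acta2 and Myh11) and 8 of 8 urothelial genes (such as Upk1a and Krt5) were well above background on all 16 arrays. So were 6 of 6 T cell genes, 6 of 6 fibroblast genes and 13376 named genes outside the members, so this measure does not single out the bladder. None of 5 male accessory gland genes passed the filter on dim probes.

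The promoters of these genes are shown because the genes varied together across bladders. RefSeq sequence (GRCm38.p6) of the 250 bases before a start site was found for 7 of the 10 genes, with no entry used for Egr1, Egr3 and Ier2. For Nr4a1 this window lay inside the span of the gene (chr15:101253902-101274795), and for Fosb it overlapped the gene. Both windows thus precede an inner start site and not the outermost. Both strands were searched for the CArG box bound by SRF, the full cyclic AMP response element TGACGTCA bound by CREB and ATF proteins, the AP-1 site TGANTCA, the EGR site GCGNGGGCG and the TATA box letters TATAAA. The shorter TGACG, which is contained in TGACGTCA, was added after the member sequences had been read. Capitals mark any match in the sequences of Fos (chr12:85473640-85473889, plus strand), Junb (chr8:84978749-84978998, minus strand), Nr4a1 (chr15:101266596-101266845, plus strand) and Dusp1 (chr17:26508473-26508722, minus strand), each written 5′ to 3′ on the gene's strand up to the base before its start.
Fos: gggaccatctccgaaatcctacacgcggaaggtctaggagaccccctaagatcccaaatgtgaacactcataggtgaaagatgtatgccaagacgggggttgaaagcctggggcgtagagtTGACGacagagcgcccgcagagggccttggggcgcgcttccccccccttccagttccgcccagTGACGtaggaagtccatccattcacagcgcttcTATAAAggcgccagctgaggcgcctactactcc
Junb: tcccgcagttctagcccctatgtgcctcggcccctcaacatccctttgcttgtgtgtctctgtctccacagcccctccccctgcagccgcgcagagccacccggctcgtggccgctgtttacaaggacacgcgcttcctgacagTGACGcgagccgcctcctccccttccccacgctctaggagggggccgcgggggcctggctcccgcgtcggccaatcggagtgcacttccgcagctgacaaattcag
Nr4a1: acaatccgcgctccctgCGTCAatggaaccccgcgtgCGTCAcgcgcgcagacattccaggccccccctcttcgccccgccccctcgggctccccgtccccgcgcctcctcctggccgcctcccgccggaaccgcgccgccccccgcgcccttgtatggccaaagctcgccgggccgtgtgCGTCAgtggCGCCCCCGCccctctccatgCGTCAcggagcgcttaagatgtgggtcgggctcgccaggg
Dusp1: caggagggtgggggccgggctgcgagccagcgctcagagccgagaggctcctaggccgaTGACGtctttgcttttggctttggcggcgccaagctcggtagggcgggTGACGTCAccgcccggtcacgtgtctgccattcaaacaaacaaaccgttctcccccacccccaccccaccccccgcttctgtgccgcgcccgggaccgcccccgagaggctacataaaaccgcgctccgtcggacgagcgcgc

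TGACG or its complement was present in 6 of the 7 promoters, those of Atf3, Dusp1, Fos, Fosb, Junb and Nr4a1, and in 17.8% of 32851 promoters of the same length. Since TGACG was picked after reading these same sequences, the difference between the shares is not a test. Nr4a1 held 4 copies, Dusp1 held 3 and Fos held 2. The full element was found in Dusp1 alone among the 7, against 1.55% of all promoters. The EGR site was found in Fosb and Nr4a1 (4.7% of all promoters) and TATAAA in Fos (12.4%). Neither the AP-1 site (6.75%) nor the CArG box (1.47%) was in any of these 7 windows. A match is a description of letters and not a measured binding site, and a missing match says nothing about regions outside the window.

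Values below are log2 processed signals less the 75th percentile of their array, so that 0 marks that percentile. They are given in the order of replicates 1 to 4, and they compare arrays for one probe, not one gene with another. A gene was called at a limma adjusted p under 0.05 with at least a 2-fold change. Since each array holds RNA of a whole bladder body, fewer cells of a type and less RNA per cell cannot be told apart. The p-values set a difference against the spread between single bladders. In limma that spread is pooled over the 4 groups and moderated over all genes, whereas a t-test uses only the groups compared.

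Among the AP-1 genes, Fos, the partner that gives the AP-1 dimer its inducibility, measured 2.06, 4.71, 4.28 and 0.86 in MAT males and -0.04, 0.89, 3.36 and 0.76 in AGED males. It measured 2.15, 0.93, 3.92 and 3.70 in MAT females and 0.65, 1.41, 3.63 and 1.51 in AGED females. The highest bladder of each group, at 3.36 or more, lay above the mean of every other group, and all groups overlapped. From the lowest array to the highest, the signal of Fos differed 26.8-fold, a span set by AGED male 1 and MAT male 2. The age difference was -1.73 in males (SE 0.97) and -0.88 in females.

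Fosb, a Fos relative whose product also pairs with Jun proteins, measured -1.14, 4.03, 0.55 and 0.18 in MAT males and -2.24, -1.10, -0.10 and -1.76 in AGED males. In females it measured 0.25, 0.23, 2.63 and 2.34 in MAT and 0.32, 0.71, 2.0 and 1.42 in AGED mice. MAT male 2 stood far above the other MAT males, and the 4 AGED males were all below the 4 AGED females. Its 76.9-fold span over the 16 arrays was the widest of the 9 genes. The age difference in males was -2.21 (95% confidence interval -4.14 to -0.27, limma adjusted p = 0.241).

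Jun, the main partner of Fos, had a narrower range. It measured 4.11, 6.13, 5.54 and 3.97 in MAT males and 3.51, 3.37, 4.23 and 3.98 in AGED males, so that replicates 2 and 3 of the MAT males lay above all AGED males and the other two did not. Its 4 AGED females lay within 0.19 of each other, at 4.22, 4.03, 4.18 and 4.06, whereas MAT females measured 3.80, 4.17, 4.64 and 4.82. The age difference in males was -1.17 (interval -2.02 to -0.31, limma adjusted p = 0.165). Junb, which competes with Jun for partners, measured -1.59, 0.87, -0.35 and -1.66 in MAT males and -2.56, -1.90, -0.86 and -1.76 in AGED males. Its age difference was -1.09 in males and -0.00 in females, where the interval of -1.05 to 1.05 covered a 2-fold difference either way.

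**Figure D1:**
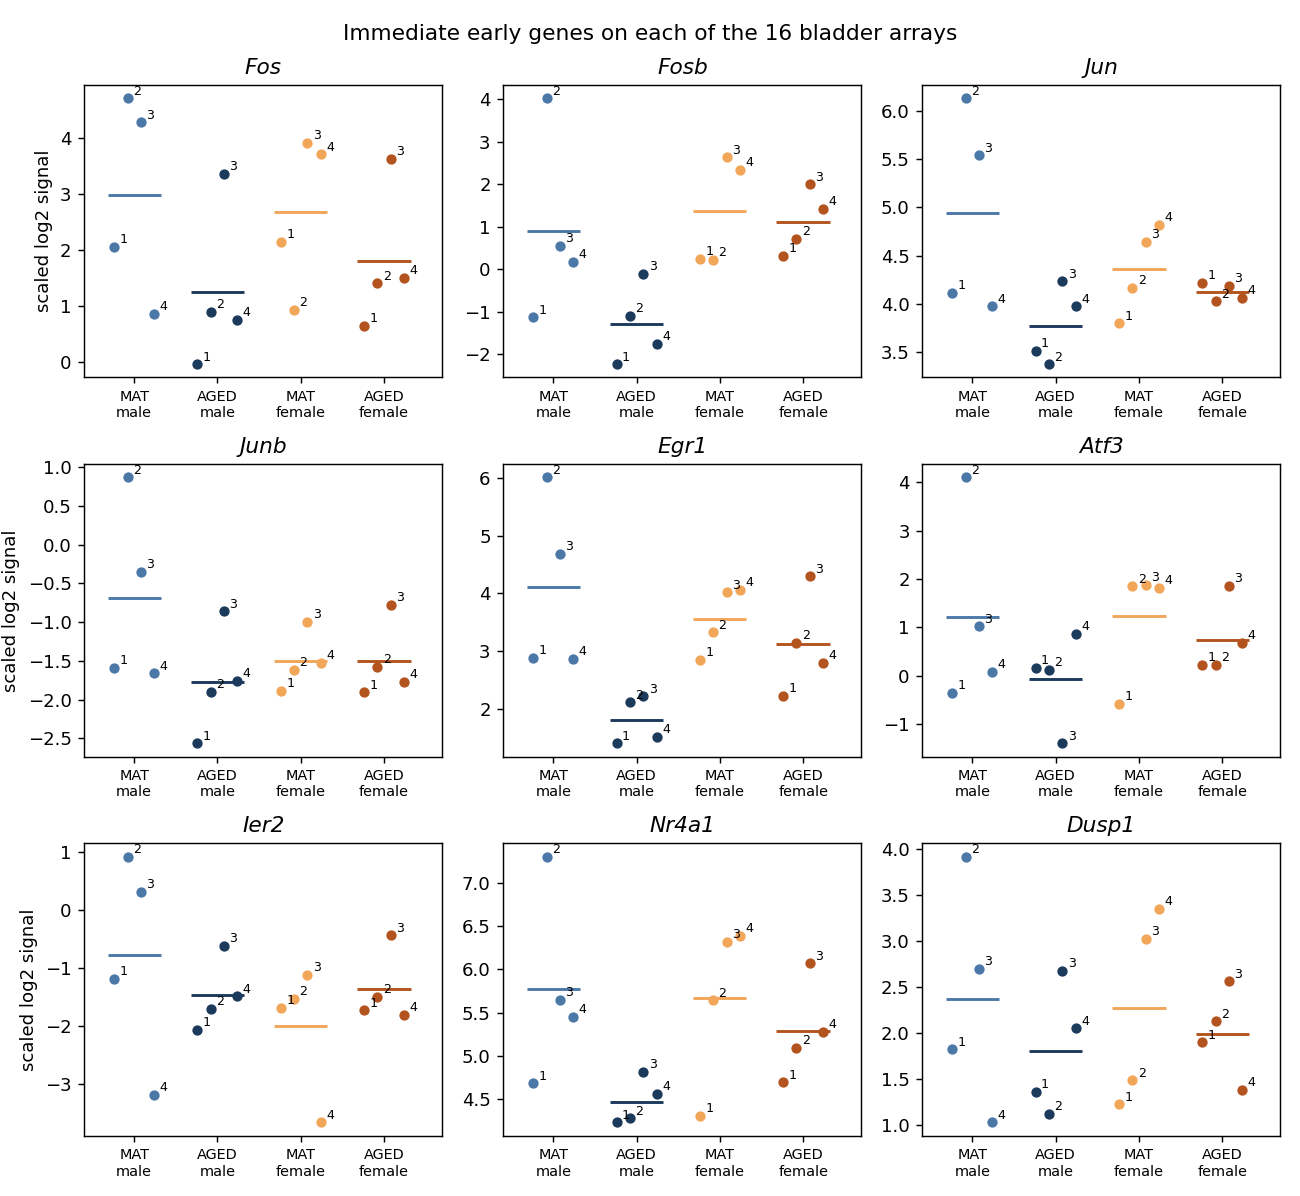
Scaled log2 signal of the 9 tested genes on each array (vertical axes, which differ between panels), with groups along the horizontal axes. Points are single bladders labelled with their replicate number and lines are group means; MAT male 2 is the highest point in all 9 panels, and MAT and AGED males do not overlap for Egr1.

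Egr1, a zinc-finger factor induced by serum and by stretch, showed the clearest separation. It measured 2.88, 6.01, 4.68 and 2.86 in MAT males and 1.40, 2.11, 2.21 and 1.51 in AGED males. All 4 AGED males were below all 4 MAT males, and below all 4 AGED females, which measured 2.22, 3.14, 4.29 and 2.79. MAT females measured 2.85, 3.32, 4.02 and 4.06 and overlapped the AGED females. Egr1 was 4.93-fold lower in AGED males on the fitted scale, a log2 change of -2.30 (SE 0.61, interval -3.61 to -0.99), with an unadjusted p of 0.00195 and a limma adjusted p of 0.0742. With no overlap, a 2-sided exact permutation test of the 4 against 4 male arrays can only give p = 0.0286, the smallest it allows. It therefore adds nothing to that separation. Groups that did not overlap between AGED and MAT males were found for 1 of the 9 genes and for 7.82% of all genes tested.

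Single arrays and settings moved the call of Egr1. Without MAT male 2 the change was -1.67 (limma adjusted p = 0.155) and without AGED male 1 it was -2.16 (adjusted p = 0.118). Without MAT male 4 it was -2.72 and was called (adjusted p = 0.0460). With normexp background correction the change was -2.21 and was called as well (adjusted p = 0.0242). The probe of Egr3, a relative of Egr1, lay between -8.09 and -3.72 and was not well above background on 15 of the 16 arrays, so no fold is given.

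Atf3, a stress-induced factor of the CREB family that also binds AP-1 proteins, measured -0.36, 4.10, 1.02 and 0.07 in MAT males and 0.16, 0.11, -1.40 and 0.86 in AGED males. Its lowest AGED male was replicate 3, the array on which the other 8 genes were highest in that group. In MAT females Atf3 measured -0.59, 1.85, 1.88 and 1.82, with replicate 1 far below the other 3. AGED females measured 0.22, 0.22, 1.85 and 0.68, and all groups overlapped. The age difference was -1.28 in males (interval -3.09 to 0.54) and -0.50 in females (interval -2.31 to 1.32).

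Nr4a1, an orphan nuclear receptor, measured 4.68, 7.30, 5.65 and 5.45 in MAT males and 4.23, 4.28, 4.81 and 4.56 in AGED males. Only MAT male 1 fell within the range of the AGED males. In females it measured 4.31, 5.64, 6.32 and 6.38 in MAT and 4.69, 5.10, 6.07 and 5.28 in AGED mice. The age difference in males was -1.30 (interval -2.40 to -0.20, limma adjusted p = 0.227).

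Ier2, whose nuclear product is less well understood, measured -1.18, 0.92, 0.31 and -3.19 in MAT males and -2.06, -1.70, -0.62 and -1.49 in AGED males. In MAT females it measured -1.69, -1.53, -1.12 and -3.66. Replicate 4 of both MAT groups lay below the rest of its group, and these were the 2 lowest values of the 16. AGED females measured -1.73, -1.49, -0.44 and -1.81. Ier2 was the only member with a higher mean in AGED than MAT females, by 0.63 (interval -0.96 to 2.22), and by 0.077 without MAT female 4.

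Dusp1, a phosphatase that removes the activating phosphates of MAP kinases and so ends the signal that induces the other genes, measured 1.82, 3.92, 2.70 and 1.03 in MAT males. AGED males measured 1.37, 1.12, 2.68 and 2.05. The ranges overlapped almost fully once MAT male 2 was set aside: the age difference was -0.56 with all arrays and -0.05 without that one. MAT females measured 1.23, 1.49, 3.02 and 3.35 and fell into a low and a high pair, whereas AGED females measured 1.90, 2.13, 2.56 and 1.39.

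Over the 9 genes, 0 were called between AGED and MAT males by limma, against 0.851% of all genes tested. At an unadjusted limma p under 0.05 with a 2-fold change, 5 genes passed (Fosb, Jun, Junb, Egr1 and Nr4a1), against 2.80% of all genes. By the methods' t-test with the same limits and no adjustment, Egr1 alone passed, against 1.85% of all genes. By that t-test p was 0.114 for Fosb, 0.0862 for Jun, 0.168 for Junb and 0.0615 for Nr4a1. The t-test used the male arrays alone, whereas limma pooled groups whose spread differed. The members' median SD was 1.53 in MAT males and 0.63 in AGED females. The median difference was -1.28, and 9 of 9 genes were lower in AGED males against 49.8% of all genes. That direction held for 9 of 9 genes with each male array left out and in all 38 settings. Many of these settings, such as a left-out female array or another test on the same values, cannot change a male difference. The 9 genes share their arrays and varied together, so they are not 9 separate agreements. Its size leaned on MAT male 2, without which the differences of Fosb (-1.17), Jun (-0.77), Junb (-0.57), Nr4a1 (-0.79), Atf3 (-0.31), Ier2 (-0.12) and Dusp1 (-0.05) shrank by more than 1.5 times. Fos shrank to -1.15, just under that limit, and Egr1 to -1.67. Without MAT male 4, in contrast, Ier2 moved to -1.48 and Dusp1 to -1.01. The other arrays that moved a difference by more than 1.5 times were MAT male 3 for Ier2 (-0.32 without it), AGED male 2 for Dusp1 (-0.34), and AGED male 3 for Dusp1 (-0.85) and Atf3 (-0.83).

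In females, 0 of the 9 genes were called by limma, against 0.190% of all genes, and the groups overlapped for 9 of 9, whereas they did not for 10.8% of all genes. Without adjustment, at p under 0.05 and a 2-fold change, limma passed 0 (1.89% of all genes) and the methods' t-test also 0 (1.47%). Of the 9 genes, 8 genes had lower means in AGED females against 50.9% of all genes, with a median difference of -0.28, which ran from -0.63 without MAT female 1 to -0.08 without MAT female 4. For Junb, Fosb and Dusp1 that sign turned when single female arrays were left out, and for Junb also under quantile scaling, normexp correction and array weights.

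**Figure D2:**
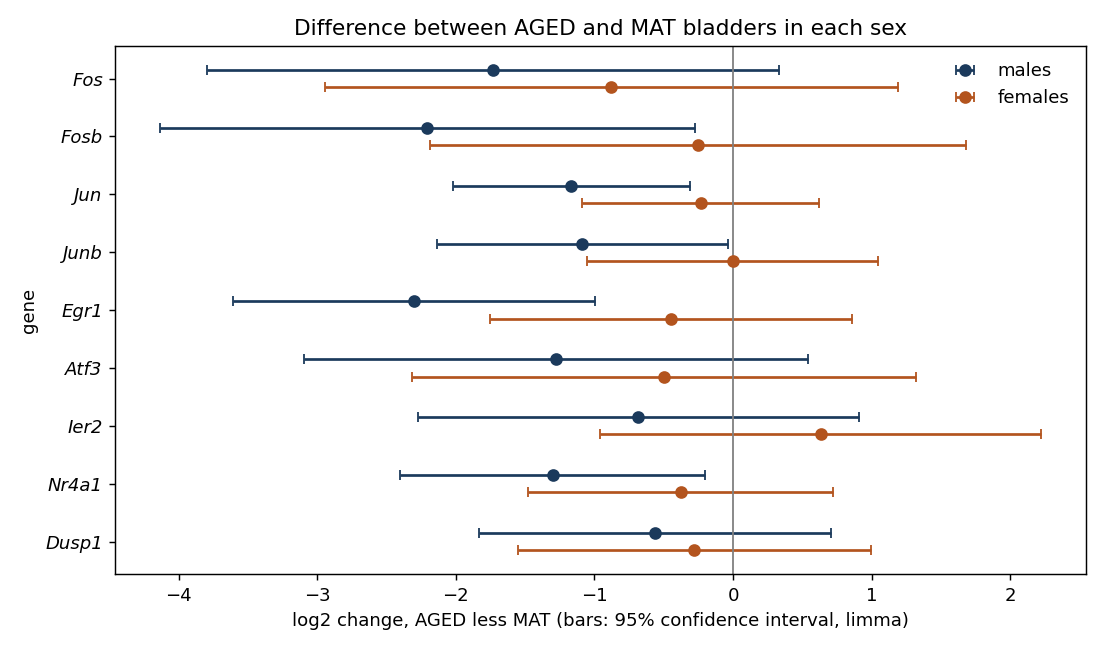
Log2 change of AGED less MAT bladders (horizontal axis) for the 9 tested genes (vertical axis) in males and females, with 95% confidence intervals from limma on 4 arrays per group. In males the intervals of Fosb, Jun, Junb, Egr1 and Nr4a1 lie below 0 before adjustment over all genes, and in females every interval includes 0.

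The age difference itself was compared between the sexes. No gene of the 9 was called by limma for a larger or smaller age change in one sex, against 0.149% of all genes. The lowest unadjusted p was that of Egr1, whose change was 1.85 more negative in males than in females (interval -3.70 to -0.00, unadjusted p = 0.0495, limma adjusted p = 0.506), and it was the only one of the 9 under 0.05, against 9.87% of all genes. A difference between the sexes in the age change was not shown for any of these genes.

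Between the sexes, MAT males and MAT females did not differ by the limma call for any of the 9 genes (0.164% of all genes were called), and 0 passed an unadjusted p under 0.05 by limma or by the methods' t-test, against 14.0% and 23.6% of all genes. Among AGED mice, 0 of the 9 were called by limma against 3.11% of all genes. Fosb and Egr1 were lower on every AGED male array than on any AGED female array, as were 13.7% of all genes in one direction or the other. The differences were -2.41 for Fosb (interval -4.34 to -0.48, limma adjusted p = 0.106) and -1.31 for Egr1 (interval -2.61 to 0.00, limma adjusted p = 0.191). At an unadjusted p under 0.05, limma passed Fosb alone, 1 of 9 against 26.2% of all genes. The methods' t-test passed Fosb, Egr1 and Nr4a1, the last below a 2-fold change, against 18.4% of all genes. Without MAT male 2, which enters this fit through its spread only, Fosb was called (limma adjusted p = 0.0311).

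Ordered by group mean, AGED males were the lowest group for 8 of 9 genes, the exception being Ier2, and MAT males the highest for 7 of 9, the exceptions being Fosb and Atf3, which were highest in MAT females. Of the 27 neighbouring pairs of groups in these orders, 26 overlapped, and the exception was Egr1 between AGED males and AGED females.

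The spread between bladders of one group was then set against that of all genes, as a description. The pooled within-group SD was 1.51 for Fos, 1.41 for Fosb, 1.33 for Atf3, 1.16 for Ier2, 0.95 for Egr1, 0.93 for Dusp1, 0.80 for Nr4a1, 0.76 for Junb and 0.62 for Jun. The median of the 9 was 0.95, against 0.30 for all genes tested, whose 90th percentile was 0.65. Fos stood at percentile 99.3 of all genes and Jun at 88.4, and the other 7 lay between them. By group, the members' median SD was 1.53 in MAT males, 1.07 in MAT females, 0.70 in AGED males and 0.63 in AGED females. Over all genes the order differed, with 0.23, 0.15, 0.36 and 0.24 in the same groups, so that the groups with the wider spread of these 9 genes were not those with the wider spread overall. The MAT male value includes MAT male 2, the highest of 16 arrays for 9 of 9 genes. The order of the groups without that array was not tested.

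**Figure D3:**
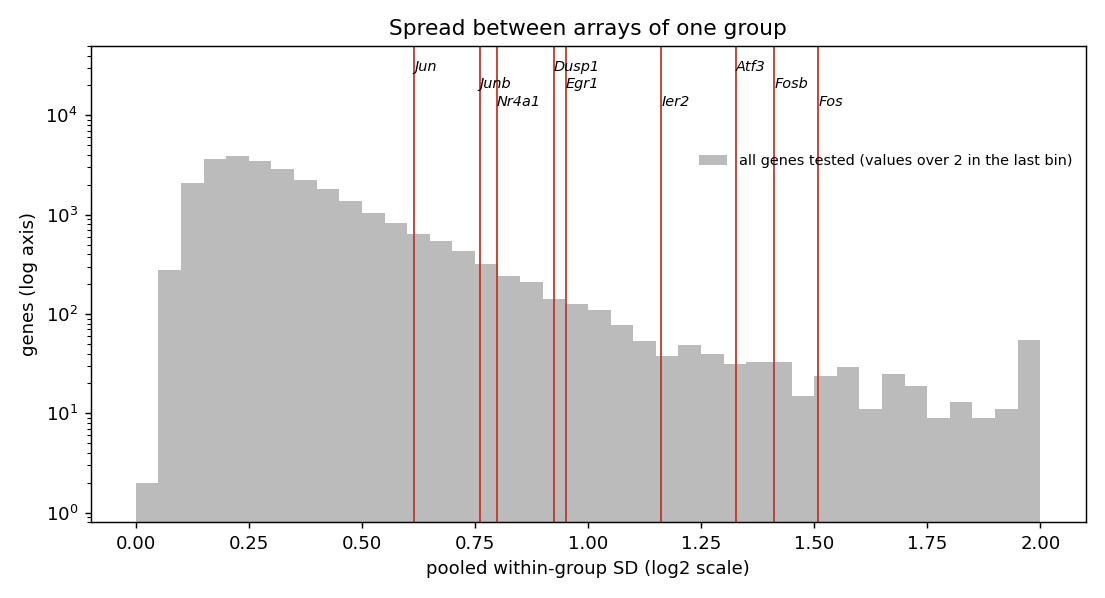
Number of genes (vertical axis, log scale) by pooled within-group SD on the log2 scale (horizontal axis) for all genes tested, with red lines at the 9 immediate early genes. Jun, at 0.62, is the member nearest the bulk of genes, and Fos, at 1.51, the farthest.

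Bladders that were high for one of these genes were mostly high for the others. Deviations of each array from its group mean had a positive Pearson r for 36 of 36 pairs of genes, with a median of 0.78 and a range of 0.36 to 0.92 over 16 arrays. The points of such a correlation share the array and its scaling. Without MAT male 2 the median was 0.68 and the lowest 0.072. Junb (r = 0.952) and Egr1 (r = 0.951) followed the mean of the other members most closely, and Atf3 (r = 0.670) and Ier2 (r = 0.601) least. Highest in its own group for 8 of 9 genes was AGED male 3, and the same count held for AGED female 3. Across arrays, the members' mean deviation had an r of 0.29 (Spearman's rho 0.36) with the array's 75th percentile and of 0.058 (rho 0.024) with the percent of probes well above background.

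**Figure D4:**
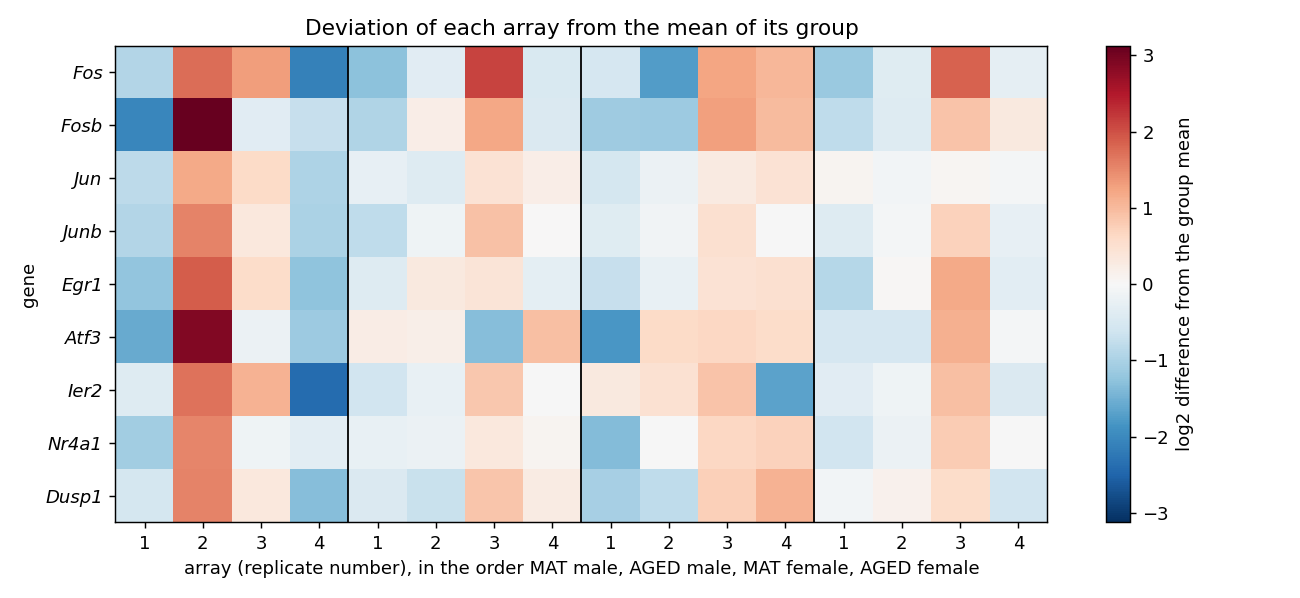
Log2 difference of each array from the mean of its group (colour) for the 9 tested genes (rows) and 16 arrays (columns, labelled by replicate number within MAT male, AGED male, MAT female and AGED female). MAT male 2 is red in all 9 rows, AGED female 3 is the highest array of its group in 8, and AGED male 3 is blue for Atf3.

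Among 13376 other named genes well above background on all arrays, the 10 whose deviations most resembled the members' mean were Ccn1 (r = 0.937), Dusp6 (0.937), Ppp1r15a (0.928), Ptgs2 (0.911), Amigo3 (0.898), Ier3 (0.893), Ovol1 (0.890), Cldn23 (0.881), Rln1 (0.874) and Sik1 (0.861). The median r of these 13376 genes was 0.029, and 25 exceeded 0.8. Ccn1, which encodes a secreted matrix protein, measured 0.23, 3.45, 0.72 and -0.76 in MAT males and 0.79, 0.47, 2.15 and 1.45 in AGED males. Its highest MAT male and AGED male arrays, replicates 2 and 3, were those that led most members in the same groups. This match follows from the choice of Ccn1 by its r over these arrays and adds nothing to it. Of the 10 genes, 1 was called for age: Rln1, a relaxin, fell by 2.17 in AGED males (limma adjusted p = 0.00908).

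A list of 40 other immediate early genes was counted in the same way, and all 40 were tested. None was called in either sex by limma, and 7 of 40 in males and 0 in females had an unadjusted p under 0.05, against 16.2% and 10.5% of all genes. In males 34 had a lower mean in AGED mice, with a median of -0.42, against 49.8% of all genes, but without MAT male 2 only 22 did and the median was -0.07. In females 19 were lower and 21 higher, with a median of 0.02. Lowest in p among them were Rgs2, a regulator of G-protein signalling, at -0.66 in males (limma adjusted p = 0.0953), and Dusp5, a nuclear phosphatase of ERK, at -2.01 (adjusted p = 0.142). The list's mean deviation tracked the members' across the 16 arrays with an r of 0.92 (rho 0.85), and 0.86 without the 2 farthest arrays, and 5 of the 10 most similar genes were in this list.

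Genes that act before and after them were counted in the same way. Of 23 upstream MAP kinase and SRF genes, 9 were lower and 14 higher in AGED males, and 7 were lower and 16 higher in AGED females. Mapk14, the p38 alpha kinase, was called in males at -1.07 (limma adjusted p = 0.0102), with 1 AGED male value left out for an outlier flag. That call was lost without AGED male 2. The list's r with the members was 0.087 (rho 0.032). Of 16 inhibitors and partners, such as the Egr1 repressor Nab2, 10 were lower in AGED males and 7 in AGED females, with 0 called by limma, 2 and 1 at an unadjusted p under 0.05 (16.2% and 10.5% of all genes), and an r of 0.40 (rho 0.26).

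Of 17 tested AP-1 and EGR target genes, 10 were lower in AGED males and 3 in AGED females, and the only call was Mmp3 in both sexes. The medians were -0.04 in males and 0.43 in females. In males 1 and in females 4 had an unadjusted limma p under 0.05, against 16.2% and 10.5% of all genes. Mmp3, a matrix metalloproteinase, was higher in AGED mice, by 2.47 in males (limma adjusted p = 0.00115) and 1.90 in females (adjusted p = 0.0269). The study's listing has Mmp3 in the reverse direction. It measured -2.80, -2.02, -2.72 and -2.89 in MAT males and 0.20, -0.68, -0.92 and 0.86 in AGED males, the opposite direction to the 9 members, and its own r with them was 0.16. The female call was lost without any one of AGED female 1, 2 and 4 or of the 4 MAT females. The target list as a whole had an r of 0.73 with the members (rho 0.60, and 0.62 for r without the 2 farthest arrays). Of its 14 genes well above background on all arrays 5 had an r over 0.5, against 6.08% of the 13376 named genes above, which were filtered in the same way. Over all 17 genes Il6, a cytokine well above background on 13 arrays, had the highest r at 0.83, followed by the growth factors Hbegf (0.76) and Areg (0.72).

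The last lists hold heat shock and circadian clock genes. Of 9 heat shock genes none was called in either sex by limma, 0 had an unadjusted p under 0.05, and the r with the members was 0.39 (rho 0.27). Of 12 circadian clock genes none was called by limma, 3 in males and 0 in females had an unadjusted p under 0.05 (again 16.2% and 10.5% of all genes), and the r was -0.05 (rho -0.04). Arntl, a core activator of the clock, had the lowest p of them at 1.68 higher in AGED males (limma adjusted p = 0.0662). In AGED males 5 of the 12 were higher and 7 lower. Dbp measured 7.02, 6.21, 6.39 and 5.90 in MAT males and 4.82, 4.95, 5.61 and 5.73 in AGED males, against the direction of Arntl. In MAT females Arntl measured 1.37, 0.53, 1.88 and 1.88 and Dbp 4.69, 5.43, 3.64 and 3.81. Deviations of opposite sign cancel in the mean of the list. Its r therefore cannot show whether the members followed the clock, and that was not tested.

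**Figure D5:**
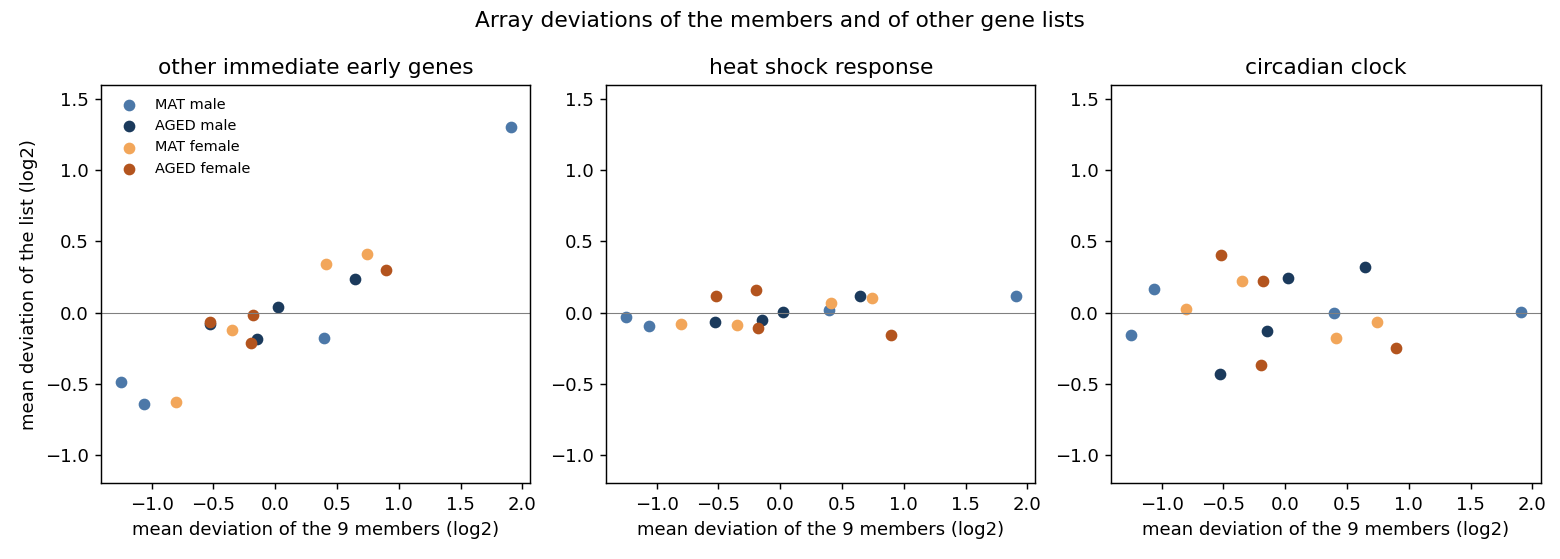
Mean deviation from the group mean of 3 gene lists (vertical axis, log2) against that of the 9 members (horizontal axis, log2), with 1 point per array coloured by group. Other immediate early genes rise with the members (r = 0.92), and heat shock (r = 0.39) and circadian clock genes (r = -0.05) stay within a narrower range or show no such course. Clock genes that move in opposite directions cancel in their mean.

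Markers of cell types were read beside these values. For neutrophils, 4 of 6 genes were tested, and S100a8 and S100a9 were higher in AGED males by 2.43 and 3.08 (limma adjusted p = 0.0211 and 0.0125), whereas the changes of Csf3r and Cxcr2 were -0.04 and -0.01. The study's listing has S100a9 in the reverse direction. Of these 2 calls, 1 was lost without MAT male 3 and without MAT male 4. The mean level of the 4 ranged from -1.41 to -0.40 in MAT males and from -0.48 to 1.08 in AGED males. T cell genes had higher means in AGED males for 6 of 6, with 0 called by limma, 2 at an unadjusted p under 0.05 (16.2% of all genes) and a mean level of -1.64 to -1.09 in MAT males and -1.60 to 1.32 in AGED males. By replicate, AGED males measured 1.32, -0.65, -1.60 and -1.45, so the highest was replicate 1, the dimmest array, and replicates 3 and 4 lay within the MAT range. The median was 0.92, and as low as 0.28 with single arrays left out. In females the 4 neutrophil genes had higher means in AGED mice (median 1.21, 3 at an unadjusted p under 0.05 against 10.5% of all genes, 0 called by limma), and the 6 T cell genes had lower ones (median -0.17).

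Fibroblast genes had lower means in AGED mice for 5 of 6 in both sexes, with medians of -0.38 in males, where 3 had an unadjusted p under 0.05 against 16.2% of all genes, and -0.07 in females. Adipocyte genes had lower means for 5 of 5 in both sexes (medians -0.59 and -1.12), and peripheral nerve genes for 5 of 6 in both (-0.30 and -0.47, with 2 and 3 at an unadjusted p under 0.05 against 16.2% and 10.5%). Over all genes, 49.8% were lower in AGED males and 50.9% in AGED females. Only 1 of the 5 adipocyte genes was well above background on all 16 arrays. With single arrays left out, as few as 3 of the 5 were lower in males, and the male median reached -0.10. B and plasma cell genes had higher means for 6 of 6 in males (0.79) and lower for 6 of 6 in females (-0.88). With single arrays left out, up to 3 of these 6 were lower in males and as few as 4 in females. Their medians then reached 0.02 in males and -0.06 in females. Medians in males and females were 0.36 and 0.37 for macrophages, -0.03 and -0.05 for endothelium, -0.44 and -0.11 for skeletal muscle, 0.03 and -0.01 for smooth muscle, and 0.03 and 0.10 for urothelium. The part of these cell types in the lower means of the 9 genes in AGED males was not tested.

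Within groups, the r with the members was -0.66 for adipocyte genes (rho -0.47, and -0.32 without the 2 farthest arrays), -0.54 for endothelium, -0.42 for B and plasma cells, -0.40 for smooth muscle, -0.30 for fibroblasts, -0.19 for T cells, -0.13 for macrophages, -0.05 for peripheral nerve, 0.02 for skeletal muscle, 0.23 for neutrophils and 0.34 for urothelium. Without the same 2 arrays it was -0.57 for endothelium, 0.007 for B and plasma cells, -0.61 for smooth muscle, -0.31 for fibroblasts, -0.14 for T cells, -0.17 for macrophages, 0.16 for peripheral nerve, -0.17 for skeletal muscle, -0.11 for neutrophils and 0.15 for urothelium. Those of B and plasma cells, neutrophils, peripheral nerve and skeletal muscle changed sign. These lists differ in size and brightness from the 40 other immediate early genes, whose r was 0.92, so the values are not on a par. The part of cell types in the shared variation was not tested. Apart from S100a8 and S100a9, no marker was called in either sex.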

How the data were processed

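Each of 16 bladders was measured on its own 1-colour Agilent array. The authors deposited the processed signal of each spot as an intensity, background-subtracted by Feature Extraction (version 10.7.3.1 in the file headers, 9.1 in the labels), and a table of log2 values. That table matched the scaled signals after centring each probe on its median, and served as an alternative.

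Control spots and flagged values (399) were left out, spots of a probe averaged, and log2 signals scaled by subtracting each array's 75th percentile. Of 55681 probes, 36972 were well above background on at least 4 arrays. Probes were named through RefSeq accessions (26582 named), and the brightest kept probe of a gene was tested. limma 3.58.1 in R 4.3.3 fitted 4 group means over 16 arrays (12 residual degrees of freedom), with Benjamini-Hochberg adjustment over 26781 genes. The procedure was tested on simulated data. The methods' t-test, other scalings, background correction, filters, blocks and left-out arrays were alternatives. Normexp (offset 50) used the median spot signal.

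The members, the 6 gene lists and the 12 marker lists were chosen with earlier results of these data known. Named genes were the members, in each other list the called genes, the 2 lowest in p and the 2 brightest, of which those that bear on a result are given, and the 10 genes most like the members. Members of lists named beyond this rule were chosen after their values were seen. Counts of lists without single arrays were added after seeing the data.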

Additional observations from a re-analysis of the deposited data

Results flagged for a closer look

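Of 48 groups of 4 arrays examined (9 tested genes and Egr3, the members' mean and the arrays' brightness in 4 groups each), 2 held an array far from its other 3, and chance alone marks about 1 in 20. In MAT females, Atf3 on replicate 1 measured -0.59 against 1.82 to 1.88 on the others, and this gap was 0.978 of the group's range. In AGED males, the 75th percentile of replicate 1 was 9.18 against 9.90 to 10.005 on the others, a gap of 0.877 of the range. No age change of the 9 genes differed between the sexes by the adjusted limma test.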

How the results depend on the processing

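The 9 genes were lower in AGED males in all 38 settings, and 6 to 8 of them were lower in AGED females. Settings that change the test alone, or leave out an array of the other sex, cannot move these counts. The count of called genes in males was 0, but 1 (Egr1) under normexp and under the methods' t-test without adjustment, 5 under limma without adjustment, and 0 to 1 with single arrays left out. The difference of the age changes gave 1 gene (Egr1) under limma without adjustment. AGED males against AGED females gave 2 genes under the methods' t-test without adjustment, 1 under limma without adjustment, and 0 to 1 with single arrays left out. Counts in females and in MAT males against MAT females stayed at 0 throughout. Egr1 in males ranged from -2.72 to -1.67 with single arrays left out (limma adjusted p 0.0460 to 0.184).

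In females the change of Junb became 0.0127 under quantile scaling, 0.0626 under normexp and 0.0165 with array weights, and ranged from -0.25 to 0.17 with single arrays left out (0.13, 0.02 and 0.08 without AGED female 1, 2 and 4, and 0.17 without MAT female 3). Fosb ranged from -0.63 to 0.17 (0.01 without AGED female 1, 0.17 and 0.07 without MAT female 3 and 4) and Dusp1 from -0.63 to 0.0815 (without MAT female 4). The causes were not tested. The members' median SD stayed between 0.80 and 1.00.

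Replicate numbers did not pair the samples: deviations of same-numbered arrays had an r of -0.147 to 0.156 in 24 pairs, 1 of them over 0.1, and 2 of 16 arrays correlated best with their own number. With the replicate number as a block, 1 gene was called in males (Egr1, limma adjusted p = 0.0403), and the other counts stayed at 0. The slide as a block left the age comparisons as they were, and with it sex could not be fitted. Each sex alone gave no test between sexes. Egr3 was limited by its signal over background.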
